A study of Mus musculus with 9 samples.

Results

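Nuclear complex I genes were followed in mouse gastrocnemius, the large calf muscle, by RNA sequencing of 9 libraries. The members are the protein-coding genes whose symbol starts with Nduf: 46 of the 55416 gene rows, of which 38 carry a subunit name (Ndufa, Ndufb, Ndufc, Ndufs or Ndufv) and 8 are assembly factors (Ndufaf). The groups, with 3 libraries each, were mice trained on a treadmill that also received metformin at 2 mg/mL in the drinking water (AET+MET), mice trained in the same way without the drug (AET), and sedentary mice (SED). Training ran on 5 days per week, for 60 min a day, over 8 weeks. The labels give no strain, sex or age and do not say whether the libraries of a group came from separate mice, so p-values measure only the spread between these samples. A group given metformin without training was not analysed here, so the drug was always measured together with training.

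Complex I, NADH:ubiquinone oxidoreductase, is the entry point for electrons from NADH into the mitochondrial respiratory chain. Its N module oxidises NADH, its Q module passes the electrons to ubiquinone, and its membrane arm, built from the ND1, ND2, ND4 and ND5 modules, pumps protons. The conserved core subunits come partly from the nucleus and partly from the mitochondrial genome, accessory subunits surround them, and assembly factors build the enzyme without staying in it. Muscle depends on the enzyme for oxidative ATP supply, and metformin is known as a complex I inhibitor.

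Promoter letters are shown first as a description, because NRF1 and YY1 are known regulators of respiratory chain genes. A link between these letters and the changes below was not tested. RefSeq promoter windows on GRCm38.p6, 300 bases long around the start site, were found for 40 of the 46 members. The NRF1 core GCATGCGC, searched on both strands, was present in 5 of these 40 windows (12.5%), against 3.05% of 27025 genes with a window and 5.81% of the 10134 among them that were tested. The windows that hold it on the gene's strand are shown with the motif in capitals:
Ndufa11, chr17:56717694-56717721, plus strand: tgcactgcgcGCATGCGCgcacgccttg
Ndufa6, chr15:82354357-82354384, minus strand: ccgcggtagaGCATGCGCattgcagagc
Ndufa8, chr2:36049329-36049356, minus strand: cgctggagacGCATGCGCagatggtacc
Ndufaf4, chr4:24897962-24897989, plus strand: agatgtctgcGCATGCGCctgtgcggaa
Ndufaf5, chr2:140170654-140170681, plus strand: tcccgttggcGCATGCGCctaatagaaa
The YY1 core AAGATGGCG was present in 6 of the 40 windows (15%), against 1.64% of all genes and 3.55% of tested genes, and these stretches show it in capitals:
Ndufa9, chr6:126849097-126849125, minus strand: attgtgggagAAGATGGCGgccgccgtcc
Ndufaf8, chr11:120098934-120098962, plus strand: ggcagggcccAAGATGGCGgcgccctcga
Ndufc1, chr3:51408915-51408943, minus strand: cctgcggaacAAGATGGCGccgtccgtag
Ndufs4, chr13:114388045-114388069, minus strand: tgcctacaggAAGATGGCGgcggtc
Ndufs6, chr13:73328433-73328459, minus strand: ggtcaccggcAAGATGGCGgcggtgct
Ndufs7, chr10:80249463-80249491, plus strand: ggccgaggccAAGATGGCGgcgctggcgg
All 6 YY1 matches began between 10 and 35 bases after the RefSeq start. The ETS core CCGGAAG was in 15% of member windows and 19.7% of tested genes, the SP1 box GGGCGGG in 40% and 51.6%, the CRE TGACGTCA in 7.5% and 3.52%, and the ERR element TCAAGGTCA in no member window and 0.296% of tested genes. A match is a description of letters and not of a bound site. Of the genes called below, Ndufa8 held an NRF1 match and Ndufc1 a YY1 match, while Ndufb10, Ndufa5, Ndufab1 and Ndufaf1 held neither. The upstream stretch of Ndufa8, the gene with the lowest adjusted p, is shown on the minus strand of GRCm38.p6 at chr2:36049407-36049588, with an SP1 box read on the other strand in capitals:
Ndufa8 upstream: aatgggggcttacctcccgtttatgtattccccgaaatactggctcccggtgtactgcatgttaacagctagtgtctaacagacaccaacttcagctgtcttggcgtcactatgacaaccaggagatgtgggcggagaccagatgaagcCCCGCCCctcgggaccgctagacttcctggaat

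All 46 members passed the filter on low counts. Total expected counts per library ran from 15434424 to 25355877, and the lowest count of a member in a library was 54. One library stood apart: 43 of the 46 members were lower in AET replicate 1 than in the mean of the other AET libraries, by a median log2 difference of -0.27, and the members took 0.347% of its counts, against 0.453% and 0.445% in AET replicates 2 and 3. Mitochondrial-genome transcripts took 15.6% of the counts of that library, the highest of the 9. Across members its departure had r = -0.06 with log2 transcript length and r = 0.19 with GC percent (n = 46 genes, which are not independent replicates). Counts and medians that rest on AET, and calls that change, are therefore given with and without it. The libraries of a group were named alike, so a batch that followed the names cannot be told apart from the group. Muscle fiber markers summed to 115074 to 129951 CPM (counts scaled to the size of the library) in AET+MET, 115652 to 132105 CPM in AET and 118284 to 135812 CPM in SED libraries, and none of these 6 genes was at 0 in any library.

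Levels per length differed far more among members than among groups. In CPM per kb of the principal transcript, averaged over the 9 libraries, subunits had a median of 94.8 (range 3.89 to 304.8) and assembly factors a median of 6.63 (range 3.35 to 15.7). Only 2 subunit-named genes, Ndufa4l2 and Ndufb2, lay below the highest assembly factor, Ndufaf1. The value of Ndufb2 rests on a principal transcript of 4371 bases, against 1478 for Ndufaf1. Before division by length, its group means were 43.2 to 51.1 CPM, above the 20.4 to 25.5 CPM of Ndufaf1. The highest levels were those of Ndufb9, Ndufa4 and Ndufb8, and the lowest those of Ndufaf7, Ndufa4l2 and Ndufaf3. Ndufa4 is now placed in complex IV, and Ndufa4l2 is its hypoxia-inducible paralog.

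**Figure D1:**
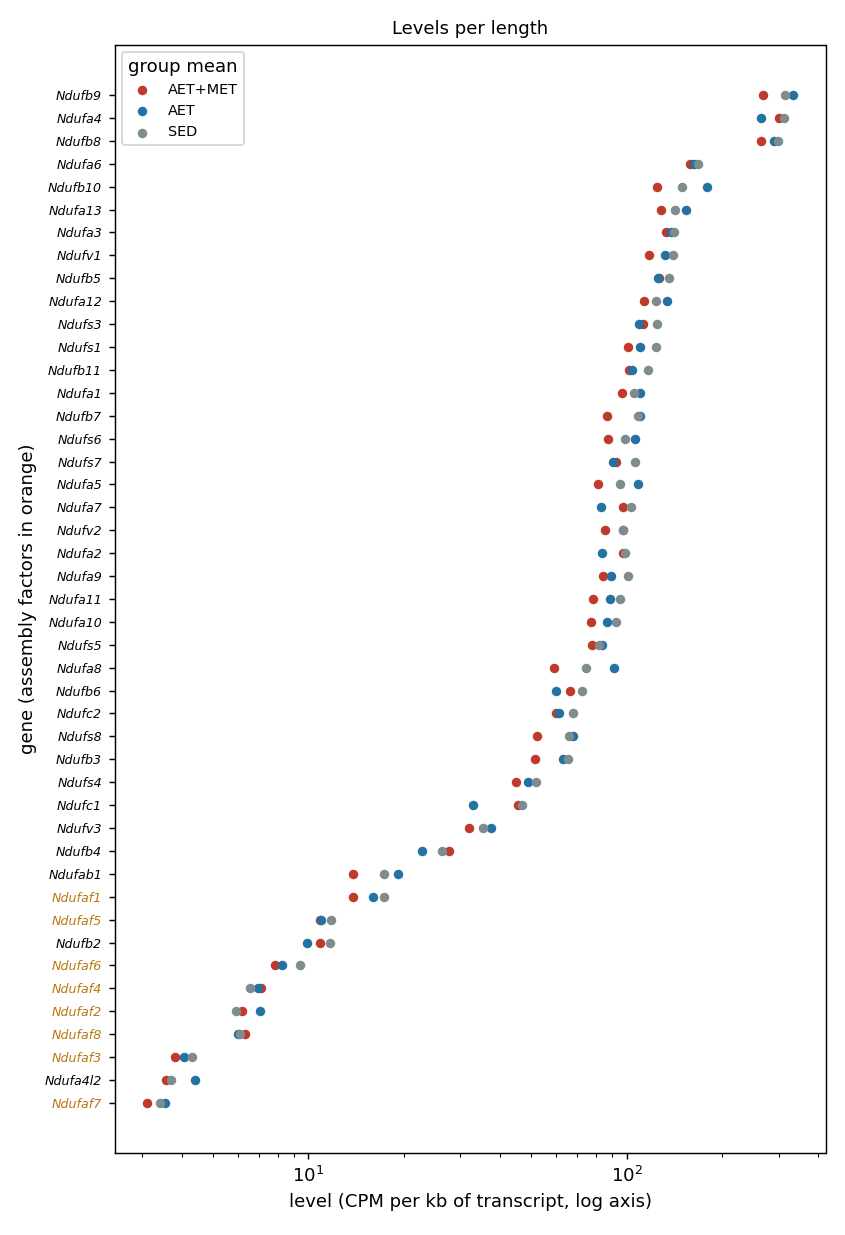
Levels of 45 genes in CPM per kb of transcript (log axis), each point a group mean of 3 libraries, genes ordered by their mean over all libraries and assembly factors labelled in orange. Means over all 9 libraries span 3.35 to 15.7 for assembly factors and 3.89 to 304.8 for subunits.

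Metformin added to training was set against training alone to ask how the drug changes complex I transcripts in trained muscle. In the main fit, Ndufa8, Ndufb10, Ndufa5 and Ndufab1 fell in AET+MET relative to AET, and no member was called higher. Calls are edgeR quasi-likelihood tests at an adjusted p under 0.05 over 13944 genes (Benjamini-Hochberg). These are 4 of 38 subunits and 0 of 8 assembly factors called lower, while 1.77% of all tested genes were called lower and 1.66% higher. Other fits called 1 subunit higher: Ndufc1 with DESeq2 and without AET replicate 2, and Ndufa2 with length and GC correction. Over all tested genes, these fits called 433, 157 and 331 higher. At an unadjusted p under 0.05, 2 subunits were higher and 13 lower, and 1 assembly factor was lower, where 21.4% of all tested genes passed in either direction. Without AET replicate 1, 1 subunit was higher and 22 lower, where 18.4% of all tested genes passed.

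Ndufa8 encodes an accessory subunit of the ND1 module on the intermembrane-space side (chr2:36036326-36049406, minus strand, GRCm38). It had 51.8, 51.7 and 49.6 CPM in AET+MET, 77.5, 70.98 and 86.6 CPM in AET and 61.2, 61.5 and 69.1 CPM in SED libraries. The groups did not overlap: every AET+MET library lay below every SED library, and every AET library above. Ndufa8 fell by 34.8% in AET+MET relative to AET, a log2 change of -0.62 ± 0.08 (SE; edgeR adjusted p = 0.00675), and it was called in each of 19 alternative fits, including all 9 that left out a library. It also fell in AET+MET relative to SED (-0.32 ± 0.08, edgeR adjusted p = 0.0479) and rose in AET relative to SED (0.29 ± 0.08, edgeR adjusted p = 0.0381). Those calls depended more on single libraries: leaving out a library kept the first in 3 of 9 fits, with adjusted p up to 0.159 (5 of 10 other settings, up to 0.243), and the second in 2 of 9, with adjusted p up to 0.156. The first was lost without AET+MET replicate 1, 2 or 3, or SED replicate 1, 2 or 3, and the second without AET+MET replicate 1, 2 or 3, or AET replicate 1 or 3, or SED replicate 1 or 2.

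Ndufb10, an accessory subunit of the ND4 module, had 95.2, 91.5 and 86.3 CPM in AET+MET, 118, 130.4 and 145 CPM in AET and 105, 102 and 122 CPM in SED libraries. Every AET+MET library was below every library of both other groups, and AET and SED overlapped. Its log2 change in AET+MET relative to AET was -0.53 ± 0.09 (edgeR adjusted p = 0.0164), and 7 of 9 fits without 1 library kept the call, with adjusted p up to 0.0852 where AET+MET replicate 3 or AET replicate 3 was left out.
Ndufa5, the accessory subunit of the Q module, had 70.1, 71.2 and 72.5 CPM in AET+MET, 97.4, 89.4 and 98.1 CPM in AET and 78.8, 76.2 and 94.7 CPM in SED libraries. AET+MET libraries were the lowest of the 9, and its log2 change relative to AET was -0.41 ± 0.09 (edgeR adjusted p = 0.0258), kept in 4 of 9 such fits with adjusted p up to 0.105 and lost without AET+MET replicate 1, 2 or 3, or AET replicate 1 or 3.
Ndufab1, the mitochondrial acyl carrier protein, had 50.01, 47.8 and 46.7 CPM in AET+MET, 57.5, 65.4 and 76.1 CPM in AET and 57.7, 56.1 and 66.5 CPM in SED libraries. AET+MET libraries were again lowest, and the log2 change relative to AET was -0.46 ± 0.10 (edgeR adjusted p = 0.0294), kept in 4 of 9 such fits with adjusted p up to 0.12 and lost without AET+MET replicate 1, 2 or 3, or AET replicate 2 or 3. Part of its counts may be shared, since its row held non-whole values and an annotated gene overlaps it on the other strand.
Without AET replicate 1, this comparison called 4 members lower: Ndufa8, Ndufb10, Ndufab1 and Ndufb7. Of the 14329 genes tested in that fit, 66 were called lower and 38 higher.

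**Figure D2:**
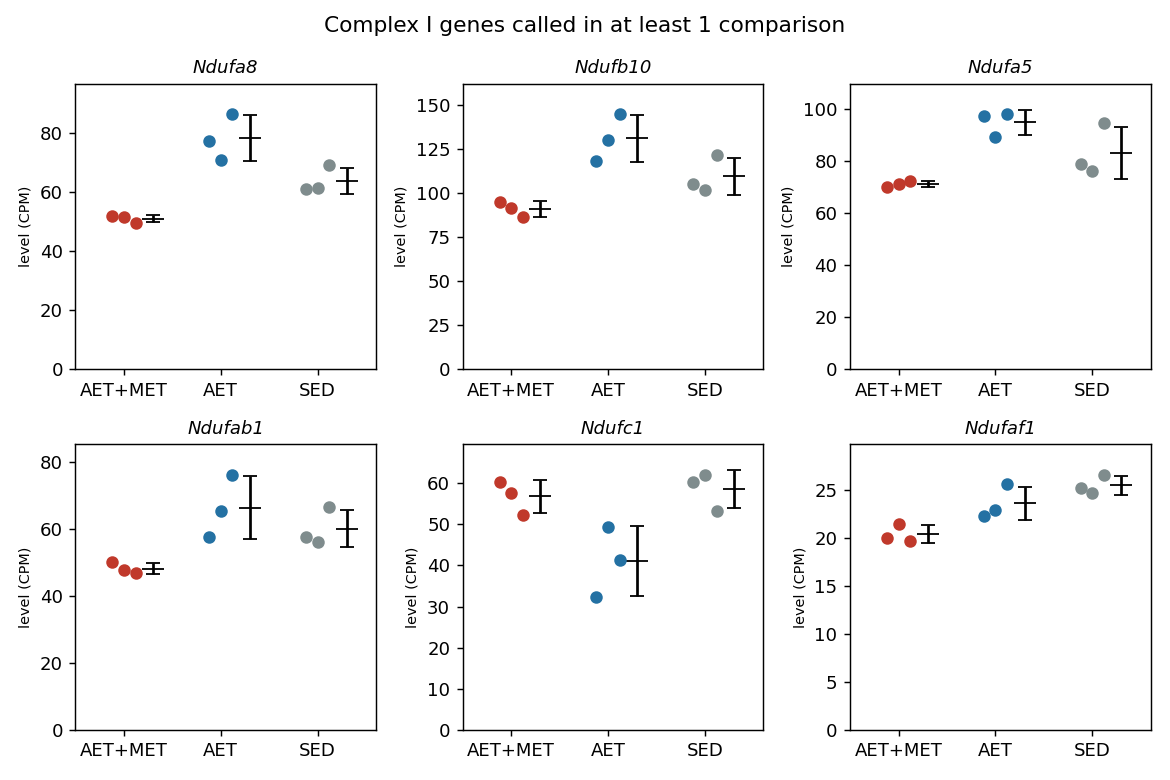
Levels in CPM (linear axes from 0) of the 6 genes called in any comparison; points are libraries and the bar beside them the mean ± SD (n = 3). Ndufa8 lies between 49.6 and 51.8 CPM in AET+MET, 71.0 and 86.6 CPM in AET and 61.2 and 69.1 CPM in SED libraries.

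Over all 38 subunits the median log2 change in AET+MET relative to AET was -0.13, with 28 estimates below 0, against a median of 0.00 over all tested genes, 49.9% of them below 0. In 13 subunits every AET+MET library was below every AET library and in 2 every one was above, while 13.2% and 14.7% of all tested genes separated in these directions. Without AET replicate 1 the subunit median was -0.22, with 32 estimates below 0. Among modules with more than 1 gene the median ranged from -0.31 over the 6 ND5 genes and -0.19 over the 5 ND1 genes to 0.01 over the 5 ND4 genes, and without AET replicate 1 these were -0.38, -0.23 and -0.11, so the ND4 sign changed. The ND4 module held changes of both signs: Ndufb10 was at -0.53 ± 0.09 and Ndufb4 at 0.28 ± 0.11, and at -0.60 ± 0.09 and 0.16 ± 0.09 without that library.
Ndufb4 has a near copy, Ndufb4c, with which its reads could be split, and held 30.9% to 34.5% of their summed counts in AET+MET, 23.9% to 27.8% in AET and 27.3% to 28.2% in SED libraries. With both rows summed, an alternative chosen after seeing the data, the log2 change was -0.05 relative to AET, so Ndufb4 alone is uncertain.
Ndufc1, a small ND2-module subunit, was higher in each AET+MET library than in any AET library, at 0.47 ± 0.13 (edgeR adjusted p = 0.0705). The main edgeR fit did not call it, while DESeq2 and edgeR without AET replicate 2 called it higher. Without AET replicate 1 it was at 0.32 ± 0.10 (edgeR adjusted p = 0.131).

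Endothelial, Schwann cell, smooth muscle and fibroblast markers also had lower sums in AET+MET than in AET libraries, with 1 of 7, 0 of 5, 0 of 4 and 1 of 5 genes called lower by edgeR. The 7 endothelial markers summed to 201 to 242 CPM in AET+MET, 259.8 to 317 CPM in AET and 227 to 257 CPM in SED libraries. The 5 Schwann cell markers summed to 30.0 to 67.6 CPM in AET+MET, 76.4 to 136 CPM in AET and 38.5 to 46.2 CPM in SED libraries. The 4 smooth muscle and pericyte markers summed to 436 to 518 CPM in AET+MET, 519 to 610.2 CPM in AET and 433 to 513 CPM in SED libraries, and the 5 fibroblast markers to 655 to 724 CPM in AET+MET, 793 to 865 CPM in AET and 975 to 1329 CPM in SED libraries. No gene of these lists was at 0. Among muscle fiber markers, Myh2, a fast oxidative myosin, had 1449, 1599 and 882 CPM in AET+MET, 2010.3, 2329.7 and 3469 CPM in AET and 1631, 2436 and 2933 CPM in SED libraries, with every AET+MET library below every library of the other groups, and was not called by edgeR (adjusted p = 0.142 relative to AET and 0.209 relative to SED). Over all 6 muscle fiber markers, 3 estimates were below 0 and 3 above in AET+MET relative to AET, with a median of -0.02. Relative to SED, 6 were below 0, with a median of -0.14. The part of these marker lists in the complex I differences was not tested. In bulk tissue, fewer cells of a type and less RNA per cell cannot be told apart.

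AET+MET was next set against SED. Ndufa8 and the assembly factor Ndufaf1 fell, and no member rose. That is 1 of 38 subunits and 1 of 8 assembly factors, with 2.42% of all tested genes called lower and 2.17% higher. Ndufaf1, which acts early in membrane-arm assembly, had 20.04, 21.4 and 19.7 CPM in AET+MET, 22.3, 22.96 and 25.6 CPM in AET and 25.2, 24.7 and 26.6 CPM in SED libraries. Its AET+MET libraries were all below its SED libraries, at a log2 change of -0.32 ± 0.08 (edgeR adjusted p = 0.0451). The call was kept in 2 of 9 fits without 1 library, with adjusted p up to 0.16, and in 4 of 10 other settings. It was lost without AET+MET replicate 1 or 3, or AET replicate 2 or 3, or SED replicate 1, 2 or 3.
The estimates of 37 of the 38 subunits were below 0 (49.5% of all tested genes), with a median log2 change of -0.18, against 0.00 for all genes. In 22 subunits every AET+MET library was below every SED library and in 0 every one was above, where 13.4% of all tested genes separated downward and 13.4% upward. Of the 38, 16 were lower and 0 higher at an unadjusted p under 0.05, a level that 20.6% of all tested genes passed in either direction. The 16 became 5 without SED replicate 3, 9 without AET+MET replicate 3, 11 with length and GC correction and 1 with library sizes alone. The subunit estimates below 0 were 31 of 38 with length and GC correction and 28 of 38 with library sizes alone. The 3 lowest estimates were those of Ndufb3 (-0.35 ± 0.12), Ndufs8 (-0.34 ± 0.12) and Ndufb7 (-0.32 ± 0.09), none of them called by edgeR, while DESeq2 called Ndufb7, as did edgeR with no filter on low counts, with only the groups compared and without AET replicate 1. Scaling by library size alone moved the median of all genes to 0.10 and the subunit median to -0.07, which is -0.18 relative to it.
The 8 slow-fiber markers summed to 89.1 to 724 CPM in AET+MET, 339 to 1280.2 CPM in AET and 837 to 1013 CPM in SED libraries. For 7 of 8, every AET+MET library was below every SED library. By edgeR, 0 of the 8 were called and 0 passed an unadjusted p under 0.05 in AET+MET relative to SED. None was at 0 counts in any library. Fibroblast markers had lower sums in AET+MET than in SED libraries, in the ranges given above. Tenocyte markers (5 genes) summed to 87.5 to 195 CPM in AET+MET, 126 to 285 CPM in AET and 292 to 466 CPM in SED libraries. Of these lists, edgeR called 2 of 5 fibroblast and 0 of 5 tenocyte markers lower in AET+MET than in SED. By library, the slow-fiber median departure from the SED mean was -4.00, -0.34 and -1.68 in AET+MET, where the subunit medians were -0.19, -0.16 and -0.23. Their part in the result was not tested.

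**Figure D3:**
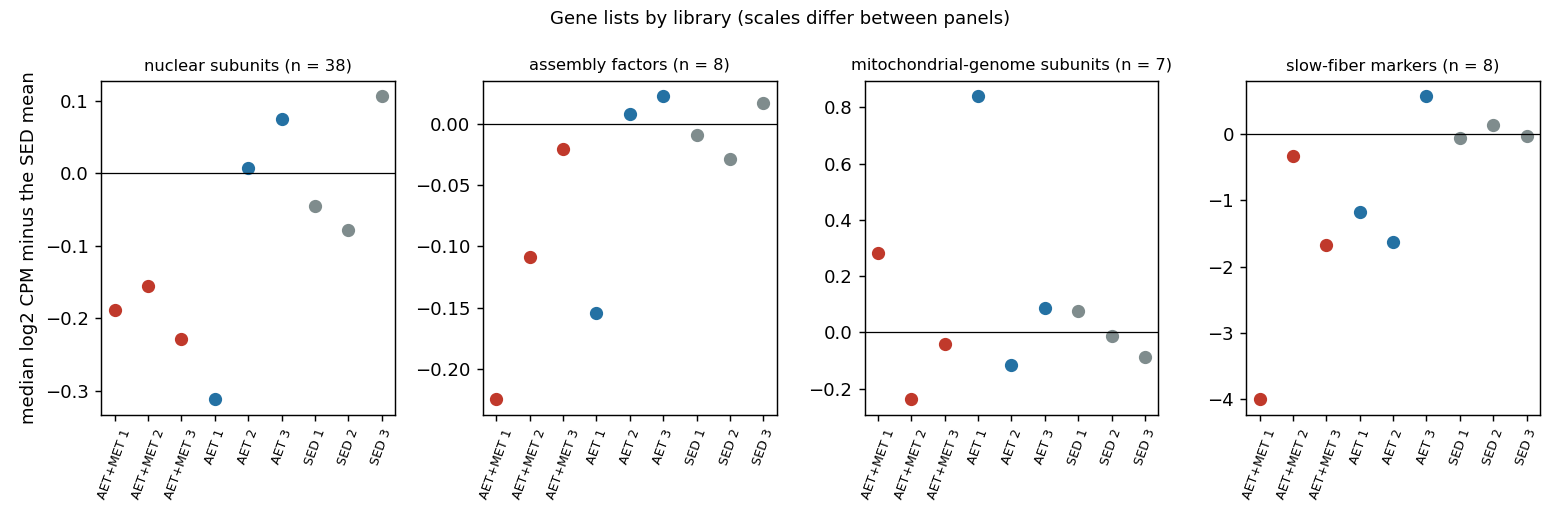
Median log2 CPM minus the SED mean for 4 gene lists, 1 point per library, with a separate scale in each panel. Subunit medians lie from -0.23 to -0.16 in AET+MET, from -0.31 to 0.07 in AET and from -0.08 to 0.11 in SED libraries.

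The effect of training alone was asked with AET against SED. Ndufa8 rose and Ndufc1 fell, 1 of 38 subunits in each direction, and no assembly factor was called or passed an unadjusted p under 0.05, while 5.82% of all tested genes were called higher and 6.45% lower. Ndufc1 had 60.3, 57.7 and 52.4 CPM in AET+MET, 32.4, 49.3 and 41.4 CPM in AET and 60.3, 62.05 and 53.3 CPM in SED libraries. All AET libraries were below all SED libraries, with AET replicate 1 lowest, and AET+MET overlapped SED. Its log2 change in AET relative to SED was -0.51 ± 0.13, and it decreased by 29.8% (edgeR adjusted p = 0.0277), kept in 5 of 9 fits without 1 library and lost without AET replicate 1 or 3, or SED replicate 1 or 2.
At an unadjusted p under 0.05, 3 of 38 subunits were higher and 4 lower, where 28.5% of all tested genes passed, and the total of 7 became 13 without AET replicate 2 or with no filter on low counts. The subunit median was -0.07, with 24 estimates below 0 (48.6% of all tested genes), against 0.01 over all genes. In 1 subunit every AET library was above every SED library and in 5 every one was below, where 16.4% and 16.3% of all tested genes separated so. Without AET replicate 1 the subunit median was 0.03 and no member was called by edgeR, with 5 subunits and 1 assembly factor at an unadjusted p under 0.05, where 23.0% of all tested genes passed. The direction of the subunits as a group in AET relative to SED thus rested on that library. Schwann cell, endothelial and smooth muscle markers summed higher in AET than in SED libraries, and fibroblast and tenocyte markers lower, each without overlap and in the ranges given above. The endothelial sums reached 257 CPM in SED and began at 259.8 CPM in AET. Kdr was the 1 endothelial marker of 7 called, with means of 65.1 CPM in AET and 31.8 CPM in SED (edgeR adjusted p = 0.00206). Estimates above 0 were 6 of 7 endothelial (Pecam1 at -0.28 ± 0.12) and 3 of 4 smooth muscle (Rgs5 at -0.06 ± 0.09). Of the 6 muscle fiber markers, only Acta1, skeletal actin, was called, lower in AET than in SED (edgeR adjusted p = 0.0295). The estimates of these 6 were below 0 in 3 and above 0 in 3, with a median of -0.04. The part of these marker lists in the complex I differences of this comparison was not tested.

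**Figure D4:**
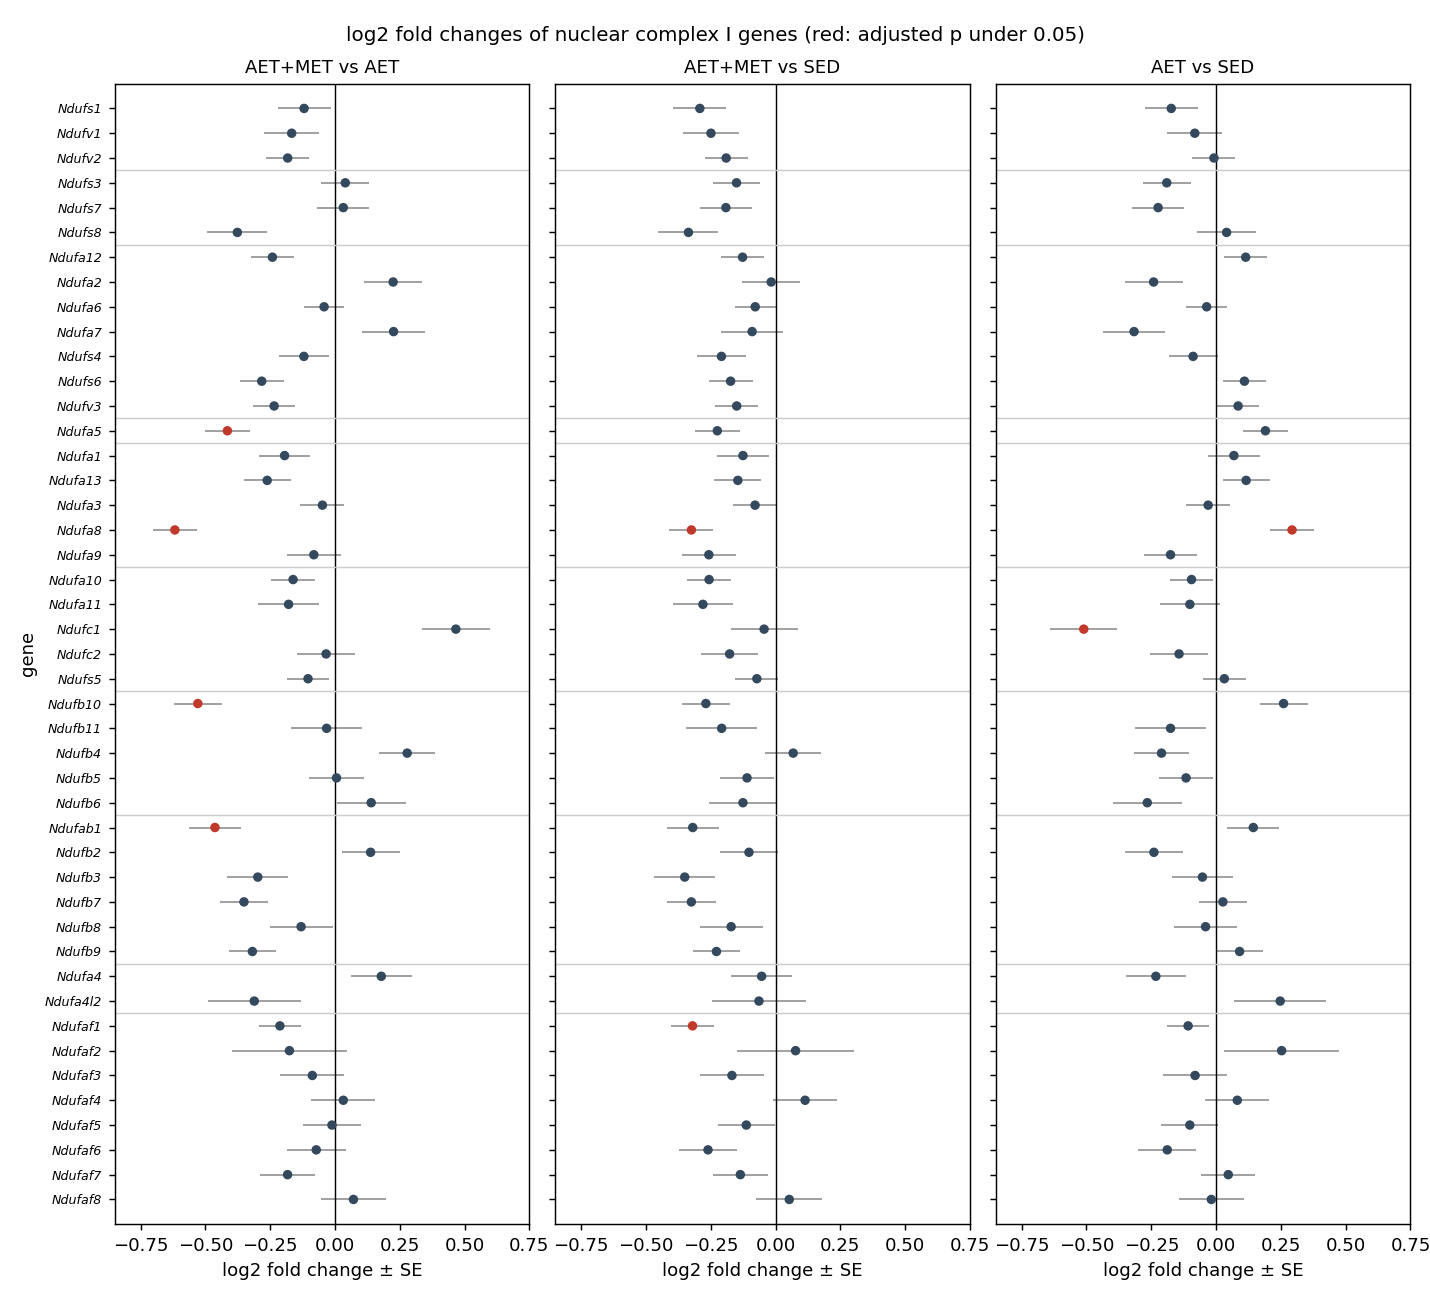
Log2 fold changes ± SE of 45 genes in 3 comparisons, ordered by module with assembly factors at the bottom; red points passed an adjusted p under 0.05. In AET+MET relative to SED 36 of the 37 subunit estimates drawn lie below 0.

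The 7 nuclear core subunits carry the flavin and iron-sulfur centres and the ubiquinone site. None of the 7 was called in any comparison by the main edgeR fit. At an unadjusted p under 0.05, 2 were lower in AET+MET relative to AET, 5 in AET+MET relative to SED and 2 in AET relative to SED. Of all tested genes, 21.4%, 20.6% and 28.5% passed that level in either direction in these comparisons. Without AET replicate 1, 4 of the 7 were lower at that level in AET+MET relative to AET and 1 in AET relative to SED. The shares of all tested genes were then 18.4% and 23.0%. DESeq2 called Ndufs8 lower in AET+MET relative to AET, as did edgeR with no filter on low counts. In the N module, Ndufv1, which binds NADH and flavin, had 206, 203 and 177 CPM in AET+MET, 184, 231 and 243 CPM in AET and 229, 218 and 249.7 CPM in SED libraries. Ndufv2 had 144, 150.0 and 141 CPM in AET+MET, 151, 167 and 176 CPM in AET and 168, 152 and 177 CPM in SED libraries. Ndufs1, the largest nuclear subunit, had 283, 279.8 and 245 CPM in AET+MET, 251, 303 and 322 CPM in AET and 329.9, 307 and 351 CPM in SED libraries. AET+MET lay below SED without overlap in all 3, at log2 changes of -0.25 ± 0.11, -0.19 ± 0.08 and -0.29 ± 0.10 for Ndufv1, Ndufv2 and Ndufs1.
In the Q module, Ndufs3 had 117, 118 and 117 CPM in AET+MET, 98.3, 123 and 122 CPM in AET and 134, 119.8 and 138 CPM in SED libraries. Ndufs7 had 96.3, 92.5 and 84.9 CPM in AET+MET, 76.2, 98.1 and 93.1 CPM in AET and 102, 96 and 115 CPM in SED libraries. In both, AET replicate 1 was the lowest library. Ndufs8 had 51.99, 56.2 and 48.8 CPM in AET+MET, 58.5, 66.8 and 78.4 CPM in AET and 63.9, 58.8 and 75.5 CPM in SED libraries, and every AET+MET library was below every library of the other groups, at -0.38 ± 0.12 relative to AET (edgeR adjusted p = 0.0881).

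**Figure D5:**
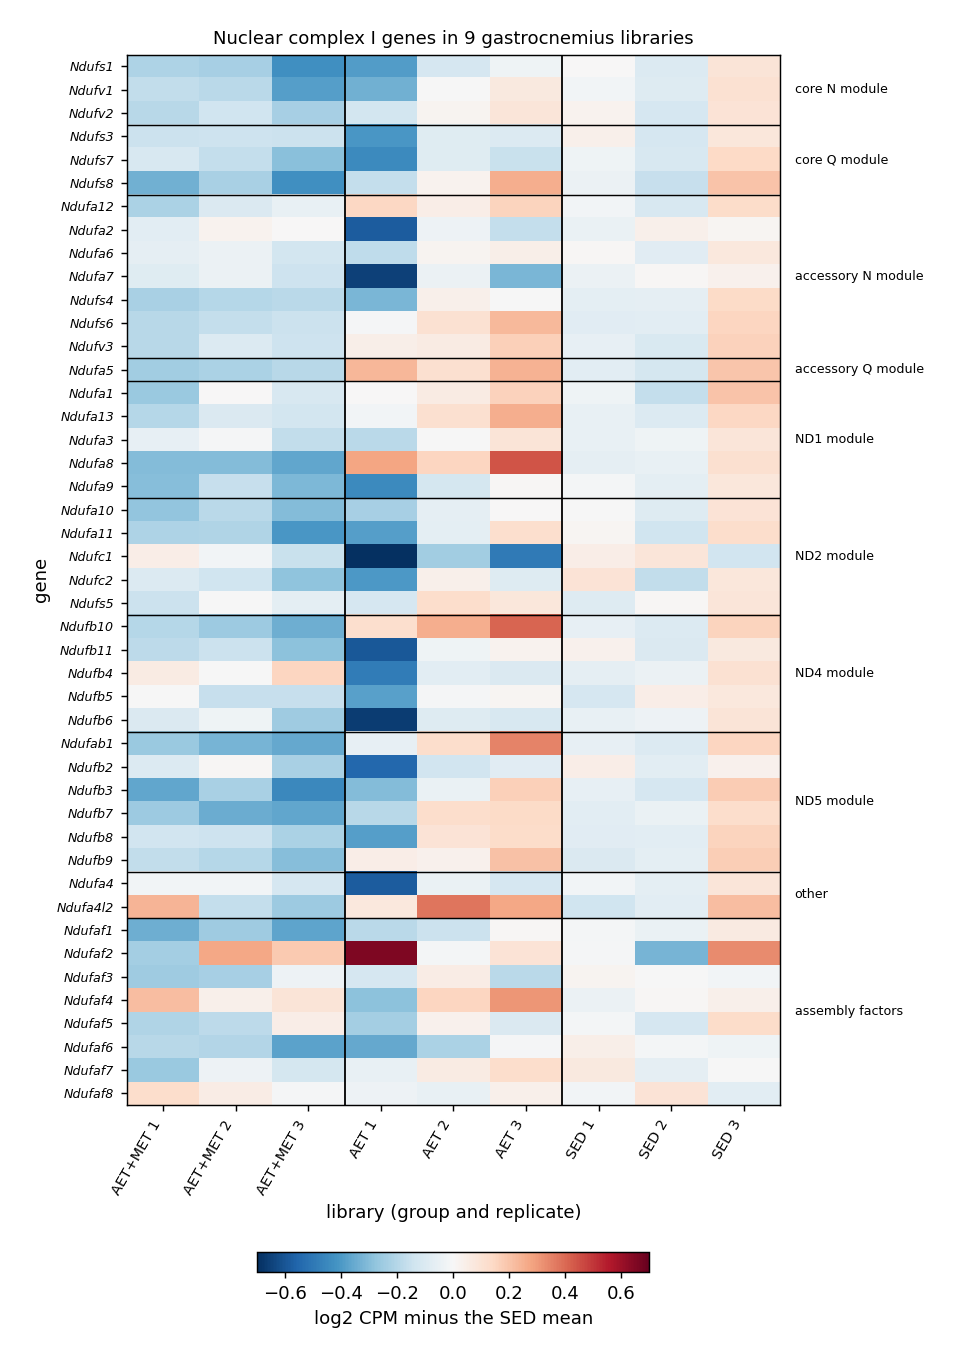
Log2 CPM minus the SED mean for 45 genes (rows, by module) in 9 libraries (columns, AET+MET, AET, SED); blue is lower and red higher, with colours clipped at the ends of the scale. AET replicate 1 is lower than the mean of the other AET libraries in 42 of these genes.

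Among the other members with the most extreme estimates, the N-module subunit Ndufa7 had 51.5, 53.1 and 49.5 CPM in AET+MET, 34.7, 53.1 and 43.8 CPM in AET and 53.1, 55 and 55.9 CPM in SED libraries, and the ND4-module subunit Ndufb6 had 44.3, 46.6 and 40.1 CPM in AET+MET, 29.97, 44.8 and 44.01 CPM in AET and 45.99, 46.4 and 50.6 CPM in SED libraries. Both were lowest in AET replicate 1 and neither was called. Ndufb4 had 26.6, 25.5 and 28.4 CPM in AET+MET, 18.2, 24.2 and 23.8 CPM in AET and 24.5, 24.8 and 27.5 CPM in SED libraries. In the ND5 module, Ndufb3 had 38.7, 42.5 and 36.4 CPM in AET+MET, 40.3, 48.2 and 55.9 CPM in AET and 47.8, 45.9 and 56.2 CPM in SED libraries, and Ndufb7 had 56.5, 53.02 and 52.3 CPM in AET+MET, 58.9, 73.3 and 73.98 CPM in AET and 63.9, 65.3 and 73.4 CPM in SED libraries. For Ndufb7 every AET+MET library was below every other library, with edgeR adjusted p = 0.0697 relative to SED and 0.0596 relative to AET. AET replicate 1 was the lowest of the 9 libraries for 18 of 38 subunits and AET+MET replicate 3 for 13, while SED replicate 3 was the highest for 18 and AET replicate 3 for 12.
Across the 9 libraries, which differ in group and depth, the median correlation of log2 CPM over 703 subunit pairs was r = 0.64 (range -0.76 to 0.98). Differences between groups and the departure of AET replicate 1 enter these correlations. Among the 6 pairs of Ndufa8, Ndufb10, Ndufa5 and Ndufab1 it was 0.93 (range 0.86 to 0.97), a description of genes picked for the same comparison. Ndufa11 and Ndufv1 followed the median of the other subunits most closely (r = 0.96 each), and Ndufc1 least (r = 0.12).

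Assembly factors were expressed at low levels and, Ndufaf1 apart, none was called. Their median log2 change was -0.08 in AET+MET relative to AET (6 of 8 below 0), -0.12 in AET+MET relative to SED (5 of 8) and -0.05 in AET relative to SED (5 of 8). Without AET replicate 1 it was -0.11 in AET+MET relative to AET and -0.03 in AET relative to SED. Ndufaf2, which acts late on the N module, had 3.33, 4.77 and 4.49 CPM in AET+MET, 6.25, 3.90 and 4.22 CPM in AET and 3.92, 3.13 and 4.98 CPM in SED libraries, and unlike most members was highest in AET replicate 1. Ndufaf3, a Q-module factor, had 5.37, 5.42 and 6.24 CPM in AET+MET, 5.87, 6.64 and 5.60 CPM in AET and 6.48, 6.39 and 6.30 CPM in SED libraries. Its partner Ndufaf4 had 27.8, 24.5 and 25.4 CPM in AET+MET, 19.6, 26.5 and 29.6 CPM in AET and 23.2, 23.96 and 24.5 CPM in SED libraries.
Ndufaf5 and Ndufaf7 are methyltransferase-family assembly factors. Ndufaf5 had 11.8, 12.1 and 14.2 CPM in AET+MET, 11.6, 14.02 and 12.8 CPM in AET and 13.6, 12.6 and 15.05 CPM in SED libraries. Ndufaf7 had 7.71, 9.03 and 8.48 CPM in AET+MET, 8.93, 9.64 and 10.1 CPM in AET and 9.69, 8.85 and 9.23 CPM in SED libraries. The groups overlapped in both.
Ndufaf6 had 8.88, 8.80 and 7.81 CPM in AET+MET, 7.92, 8.71 and 10.1 CPM in AET and 10.4, 10.1 and 9.97 CPM in SED libraries, with every SED library above every AET+MET library, at -0.26 ± 0.11 (edgeR adjusted p = 0.213). Ndufaf8, the Ndufaf5 partner, had 5.18, 4.91 and 4.71 CPM in AET+MET, 4.63, 4.57 and 4.87 CPM in AET and 4.68, 5.06 and 4.49 CPM in SED libraries, and the ranges of the groups overlapped.

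Assembly factors outside the Nduf names and the mitochondrial-genome subunits give the rest of the pathway. Of 13 other assembly factors, only Aifm1, which helps import intermembrane-space proteins, was called: it had 20.5, 20.8 and 18.9 CPM in AET+MET, 24.1, 26.1 and 30.9 CPM in AET and 24.2, 23.5 and 26.97 CPM in SED libraries and fell in AET+MET relative to AET (-0.43 ± 0.10, edgeR adjusted p = 0.0367), also without AET replicate 1 (-0.51 ± 0.10, edgeR adjusted p = 0.0439). The median log2 change of these 13 was -0.01 in AET+MET relative to AET, -0.12 in AET+MET relative to SED and -0.13 in AET relative to SED, and without AET replicate 1 it was -0.08 in AET+MET relative to AET and -0.05 in AET relative to SED.
Of the 7 mitochondrial-genome subunits, only mt-Nd6, the one encoded on the other strand of that genome, was called. It had 70.2, 69.6 and 60.6 CPM in AET+MET, 272, 134 and 261 CPM in AET and 85.3, 95.7 and 144 CPM in SED libraries and fell in AET+MET relative to AET (-1.73 ± 0.32, edgeR adjusted p = 0.0386), a call lost without AET replicate 1 (-1.56 ± 0.34). mt-Nd3 had 2233, 2084 and 1729 CPM in AET+MET, 319, 1193 and 762 CPM in AET and 1729, 1673 and 1461 CPM in SED libraries, so AET libraries were lowest, but it was not called (1.41 ± 0.44 relative to AET, edgeR adjusted p = 0.130). The other 5 were not called in any comparison.
Ndufb1 is represented by the row Ndufb1-ps, which GENCODE gives a non-coding biotype and which is no member by the rule. It had 62.7, 63.6 and 66.5 CPM in AET+MET, 50.6, 62.5 and 62.7 CPM in AET and 64.4, 60.7 and 71.7 CPM in SED libraries and was not called.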

How the data were processed

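RNA of 9 gastrocnemius libraries was extracted with an RNeasy kit and made into SMARTer mRNA-seq libraries, per the labels' protocols. The authors deposited 1 table of RSEM expected counts per gene, not normalized. STAR 2.5.3a, RSEM 1.3.0, edgeR 3.34.0 and GRCm38 are named, without roles, per the submitters' processing notes, and the sources used here do not give the strand setting or the annotation release. Without strand, reads of overlapping genes cannot be told apart, and 18 members overlap an annotated gene on the other strand.

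Expected counts were rounded and fitted over all 9 libraries with edgeR 4.0.16 (R 4.3.3; TMM, filterByExpr, robust quasi-likelihood, 6 residual degrees of freedom), testing 13944 genes with Benjamini-Hochberg adjustment. CPM are TMM-scaled. SE is the log2 change divided by the square root of F. Symbols, biotypes and positions came from GENCODE M21, and promoters from RefSeq GRCm38.p6. Alternatives included DESeq2 1.42.0, limma 3.58.1, other scalings and filters, and leaving out each library. The code was tested on simulated data. Genes named with values in every library were those called in any comparison, the 7 nuclear core subunits, the 3 highest and 3 lowest log2 changes per comparison and all Ndufaf genes. The values of 1 core subunit are not reported here, and it stays in the counts and medians. Members and lists were chosen with earlier results of these data known.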

Additional observations from a re-analysis of the deposited data

Results flagged for a closer look

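Between the trained groups, 4 of 38 subunits differed by a direct edgeR test (Benjamini-Hochberg adjusted p under 0.05). Over all tested genes, 1.77% were called lower and 1.66% higher. The log2 change in AET+MET relative to AET was -0.62 for Ndufa8, -0.53 for Ndufb10, -0.41 for Ndufa5 and -0.46 for Ndufab1. In each gene the 3 AET+MET libraries were all below the 3 AET libraries. Fits that left out 1 library kept the call in 9 of 9 for Ndufa8, 7 for Ndufb10, 4 for Ndufa5 and 4 for Ndufab1.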

How the results depend on the processing

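Counts of members called moved most. In AET relative to SED it was 2, ranged from 0 to 4 when 1 library was left out, and was 1 with library sizes alone, 0 with only the 2 groups compared. In AET+MET relative to SED it was 2, ranged from 0 to 5 when 1 library was left out, and was 0 with upper-quartile scaling, 0 with library sizes alone, 4 with no filter on low counts, 5 with DESeq2, 0 with limma-voom, 0 with replicate block, 0 with length and GC correction. In AET+MET relative to AET it was 4, ranged from 1 to 5 when 1 library was left out, and was 7 with no filter on low counts, 7 with a filter of 5 CPM in 3 libraries, 8 with DESeq2. Of the 8 with DESeq2, 1 was higher. Calls over all tested genes moved too, from 231 higher and 247 lower in that comparison to 433 and 443 with DESeq2. They were 346 and 385 with no filter (26411 genes tested) and 262 and 373 with the filter of 5 CPM in 3 libraries (8682 genes). Without SED replicate 3, where 5 members were called, they were 219 and 242. They were 11 and 12 without AET+MET replicate 3, where 1 member was called. Totals in AET+MET relative to SED were 303 and 337, and 296 and 360 with length and GC correction. Upper-quartile scaling gave 372 and 292, library sizes alone 684 and 176, no filter 344 and 435, and DESeq2 346 and 551. With limma-voom they were 242 and 300, and with replicate block 241 and 294. Without AET replicate 1, where 5 members were called, they were 273 and 351. Without AET+MET replicate 3, where 0 were called, they were 53 and 88. Those in AET relative to SED were 812 and 900, 789 and 627 with library sizes alone, and 710 and 725 with only the 2 groups compared. Without SED replicate 3, where 4 members were called, they were 563 and 650. Without AET replicate 1, where 0 were called, they were 412 and 522. The medians of AET+MET relative to SED with library sizes alone were -0.0718 for subunits and -0.0235 for assembly factors. The replicate block, with numbers that the labels do not tie to shared animals, left 2 calls in AET relative to SED, 0 in AET+MET relative to SED and 4 in AET+MET relative to AET. Correlations of the deviations from the group means were computed between libraries of different groups. Same-numbered libraries had r between -0.05 and 0.18 and others between -0.17 and 0.14, so the numbers were not taken as pairing them. 

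Of 1216 recomputed values of 64 uncalled gene and comparison pairs, 1152 kept direction and side of the threshold, 20 passed it and 44 changed sign. For AET relative to SED, upper-quartile scaling gave 0.0146 for Ndufaf8, 0.0252 for Ndufv2, library sizes alone gave 0.00732 for Ndufv2, the filter of 5 CPM in 3 libraries gave 0.00850 for Ndufaf8, 0.0196 for Ndufv2, length and GC correction gave 0.0261 for Ndufaf8, 0.0260 for Ndufv2. Leaving out 1 library gave -0.18 to 0.0556 for Ndufb3, -0.16 to 0.0260 for Ndufv1, -0.0681 to 0.0467 for Ndufv2, -0.0571 to 0.0291 for Ndufaf8, -0.0314 to 0.12 for Ndufb7, -0.0512 to 0.23 for Ndufaf4, -0.0778 to 0.15 for Ndufs8. For AET+MET relative to SED, library sizes alone gave 0.0108 for Ndufa7, 0.0551 for Ndufc1, length and GC correction gave 0.0107 for Ndufb6, Ndufb4c reads added gave -0.15 for Ndufb4. Leaving out 1 library gave -0.0774 to 0.26 for Ndufaf2, -0.11 to 0.00339 for Ndufc1. For AET+MET relative to AET, library sizes alone gave 0.0719 for Ndufaf5, 0.0170 for Ndufaf6, length and GC correction gave -0.00903 for Ndufaf4, Ndufb4c reads added gave -0.0497 for Ndufb4. Leaving out 1 library gave -0.12 to 0.16 for Ndufaf4, -0.11 to 0.0581 for Ndufaf5, -0.0687 to 0.11 for Ndufs7, -0.31 to 0.0562 for Ndufaf2, -0.0237 to 0.24 for Ndufb6, -0.0572 to 0.0946 for Ndufs3, -0.15 to 0.0295 for Ndufaf6. The causes were not tested. List and pathway-gene values without AET replicate 1 were added after seeing the data.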
